A study of Mus musculus with 3 samples.

Results

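The 47 genes described here act in G2 or M phase of the cell cycle. They were taken as a list of symbols chosen by function, and all 47 were among the 32916, 29872 and 28667 genes seen in at least 3 cells of the 3 libraries (34313 genes in all). By role, 7 are Cdk1 with its partners and mitotic kinases, 4 belong to the spindle checkpoint and the anaphase-promoting complex, and 3 to the chromosomal passenger complex. A further 6 act at the kinetochore and centromere, 12 on the spindle and microtubules and 9 on chromosome structure and chromatin. The remaining members are 3 genes of the nuclear envelope and transport, 2 of cytokinesis and 1 ubiquitin ligase of G2.

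The study asked which somatic cells of the mouse testis supply stem cell factor (SCF, the product of Scf, listed as Kitl) and what happens to germ cells when Sertoli cells do not make it. Droplet single-cell RNA sequencing counted unique molecular identifiers (UMIs) per gene and cell in C57BL/6 testes. The first library came from mice aged 8 weeks that carried Ddx4-creER and R26tdTomato and had received tamoxifen, from which Tomato+ germ cells had been sorted out (Tomato-negative), although 1331 differentiating spermatogonia and 1298 pachytene and later cells were among its 6234 kept cells. The other libraries came from mice aged 6 weeks, Scf fl/fl without Cre (control) and their littermates with Amh-cre added to Scf fl/fl (cKO), both depleted of haploid spermatids by a Hoechst sort, so that the number of spermatids there was set by the sort. Amh-cre acts in Sertoli cells, both of these groups carry the floxed allele, and each group is 1 library, with no label that ties a cell to a mouse. All values therefore have intervals for counting error only, at 95%, and no difference between groups was tested.

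G2 is the interval in which a cell with replicated DNA prepares to divide, and M phase is the division itself. Cdk1, activated by cyclins and by the phosphatases of the Cdc25 family, drives entry; condensin and topoisomerase II shape the chromosomes; the kinetochore ties them to the spindle; and the anaphase-promoting complex ends the phase by marking its regulators for destruction. In the testis spermatogonia divide by mitosis, whereas spermatocytes replicate their DNA once, pass a long prophase and then divide by meiosis I and II, so that many of the same proteins serve both kinds of division.

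Kept cells had 6090.5 to 13453.5 UMIs at the median, and libraries shared 9 to 15 cell barcodes. Germ and somatic classes were named from marker genes that include no member, from clusters made without cell cycle genes, and every name means "-like". Kitl was at 128 counts per 1000000 UMIs (CPM, 119 to 138) in Sertoli cells of the Tomato-negative library. No Sertoli cluster could be named in the control or cKO library, so Kitl could not check their labels, and outside Sertoli cells, in Tcf21 stromal cells, it was at 362 CPM in control and 319 CPM in cKO.

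The classes of differentiating spermatogonia did not hold like cells in control and cKO. Control and cKO were joined by anchor integration, as in the methods of the study. In the joint class Zbtb16, a factor of undifferentiated spermatogonia, was at 38.0 CPM in control and 205 CPM in cKO. Gfra1, the GDNF co-receptor of stem-like spermatogonia, was at 0.0805 CPM (1 count) in control and 17.9 CPM in cKO, and Kit, the receptor for SCF, was at 167.1 and 31.8 CPM. Of the other markers of differentiating spermatogonia, Dmrtb1 (105.4 and 4.10 CPM), Rhox13 (151.9 and 28.2), Esx1 (142.8 and 19.9), Crabp1 (338 and 233.7) and Dmrt1 (225.9 and 218.5) were lower in cKO. Sohlh1 (97.4 and 328.5 CPM), Sohlh2 (24.2 and 38.7) and Stra8 (252.5 and 254.1) were not. The 13 markers of undifferentiated spermatogonia summed to 2.30 UMIs per 10000 in control and 8.95 in cKO, with 12 and 13 of them seen, and the 9 of differentiating spermatogonia to 15.05 and 11.6, with 9 of 9 seen in each. Values from clusters made without integration are therefore given after those of the joint class.

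Summed over the 47 genes as a share of all UMIs, transcripts of G2 and M phase were highest in differentiating spermatogonia. They were lowest in somatic cells other than control macrophages. The order of differentiating spermatogonia and pachytene cells depends on the scale, as it turned under the TMM scaling given below. They made up 118.9 of 10000 UMIs (118.3 to 119.5) in differentiating spermatogonia of the control library and 119.9 (119.4 to 120.4) in those of the Tomato-negative library. Undifferentiated spermatogonia held 82.3 and 63.8 per 10000 in the same order, cells from preleptotene to early prophase 104.3 and 93.0, pachytene and later spermatocytes 80.05 and 77.1, and spermatids 42.1 and 36.2. The order of the 5 stages was the same in both libraries except that undifferentiated spermatogonia lay just above pachytene cells in control and below them in the Tomato-negative library. In cKO the sum was 77.03 in undifferentiated spermatogonia, 96.55 in the joint differentiating class and 95.2 (92.3 to 98.1) in the 71 early prophase cells, while the 18 pachytene cells and 23 spermatids were too few to compare. Somatic classes held 10.7 to 24.3 per 10000 apart from macrophages of the control library, at 46.2.

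**Figure D1:**
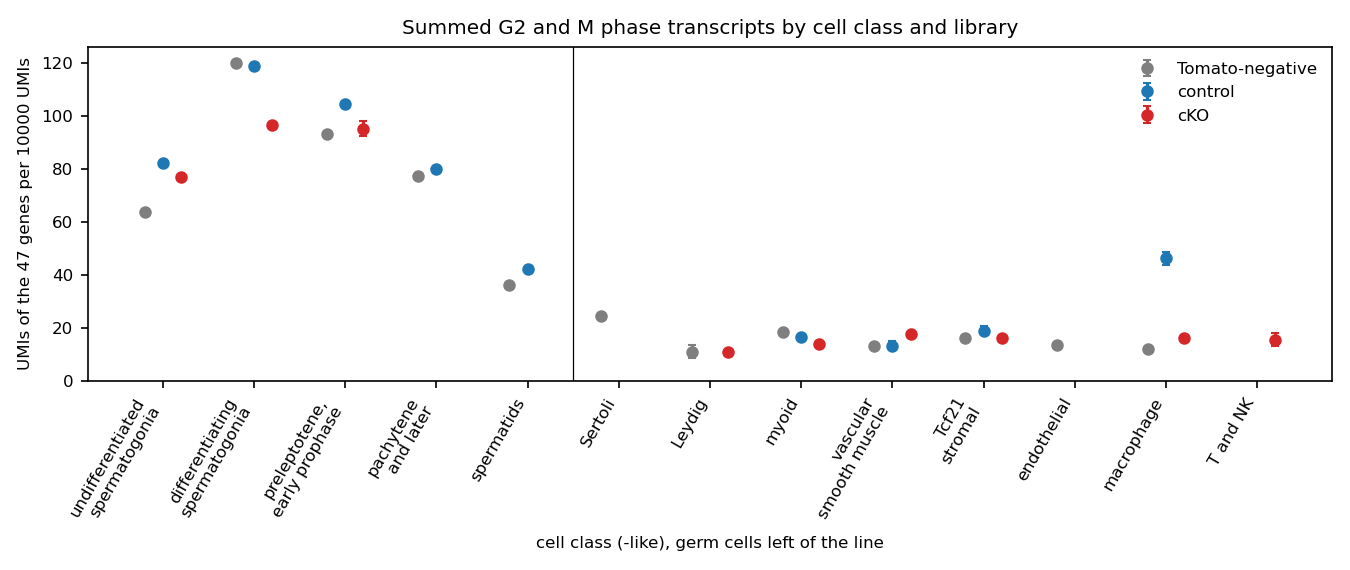
UMIs of the 47 genes per 10000 UMIs (vertical axis) in each germ and somatic class (horizontal axis), 1 point per library with its exact Poisson interval for counting error. Differentiating spermatogonia stand highest in the control library at 118.9, and somatic classes lie between 10.7 and 24.3 except control macrophages at 46.2.

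A few genes supplied much of each sum, and they were not the same ones at each stage. In control differentiating spermatogonia the 5 genes with the most UMIs, Tubb4b, Cenpf, Hmgb2, Top2a and Mki67, gave 45.4% of the sum. Pachytene cells took 50.9% from Tubb4b, Smc4, Cenpf, Cks2 and Nek2, and spermatids took 42.6% from the tubulin gene Tubb4b alone. Over all kept cells of the 3 libraries the members with the most UMIs were Tubb4b (442746), Cenpf (228928), Smc4 (216008), Hmgb2 (132377) and Top2a (103807). These totals weigh pachytene cells heavily, whose median was 48812 UMIs in control against 7422 in differentiating spermatogonia.

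By the stage at which each gene was highest in control on the CPM scale, 22 members peaked in differentiating spermatogonia and 11 in pachytene and later cells. A further 5 peaked in undifferentiated spermatogonia, 5 in early prophase and 4 in spermatids. These counts depend on the scale, as under the TMM scaling given below Nusap1, Tacc3, Aurkb, Ttk, Hmmr, Cenpe and Cbx5, all among the 22, were higher in pachytene cells. The interval of the highest stage overlapped that of the second for 8 of the 22, 0 of the 11, 1 of the 5 in undifferentiated spermatogonia, 1 of the 5 in early prophase and 2 of the 4. The Tomato-negative library placed 41 of 47 genes at the same stage, the exceptions being Nusap1, Tpx2, Cks2, Tmpo, Cenpf and Hmmr. In control, 39 members were higher in differentiating than in undifferentiated spermatogonia, and the 8 others were Cks2, Tmpo, Anp32e, Cdc25c, Cdca8, Lbr, G2e3 and Gas2l3.

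**Figure D2:**
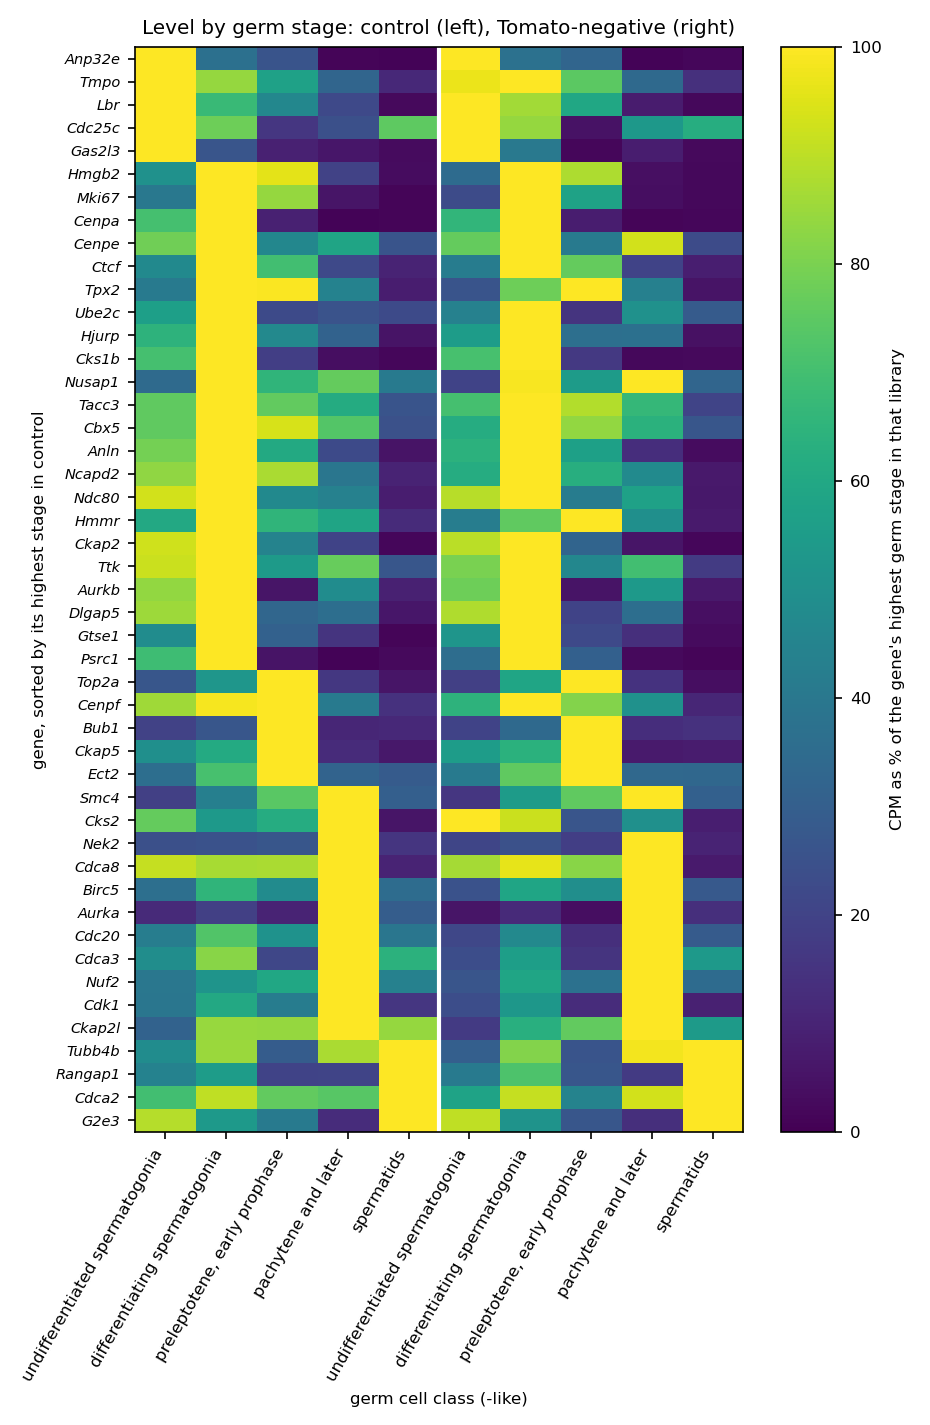
Level of each of the 47 genes (rows) in 5 germ cell classes of the control (left) and Tomato-negative (right) libraries, as CPM in percent of the gene's highest germ stage in that library. Genes are sorted by their highest stage in control, and 41 of 47 have the same highest stage in both libraries.

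Among Cdk1 and its partners, levels of single genes ran in opposite directions from spermatogonia to pachytene cells. Cdk1, the kinase that drives entry into M phase, was at 51.1 CPM in undifferentiated and 78.8 CPM in differentiating spermatogonia, 54.9 CPM in early prophase, 130.4 CPM in pachytene and 20.7 CPM in spermatids of control. Its small binding subunit Cks2 was at 312, 220.5, 255, 410.1 and 23.8 CPM over the same stages. The paralogous subunit Cks1b was at 146, 208, 38.9, 7.96 and 3.35 CPM, so that Cks2 had its highest and Cks1b almost its lowest level in pachytene cells. In the Tomato-negative library Cks1b was at 217 CPM in differentiating spermatogonia and 4.76 CPM in pachytene cells, whereas Cks2 was at 231 and 126 CPM there and was highest in undifferentiated spermatogonia, at 252 CPM. The direction of Cks1b was therefore shared by both libraries and that of Cks2 was not.

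The mitotic kinases Aurka, which acts at centrosomes, and Nek2, which separates them, were highest in pachytene cells. Aurka was at 37.1, 59.4, 31.8, 316 and 93.3 CPM from undifferentiated spermatogonia to spermatids in control, and Nek2 at 89.2, 92.3, 98.4, 367 and 57.2 CPM. Both stayed below 100 CPM up to early prophase and were several-fold higher in pachytene cells, where the Tomato-negative library had them at 448 and 262 CPM. Cdc25c, a phosphatase that activates Cdk1, was highest in undifferentiated spermatogonia at 36.4 CPM, was at 5.69 CPM in early prophase and at 27.3 CPM in spermatids. Cdca3, a trigger of mitotic entry, was lowest in early prophase at 46.7 CPM and highest in pachytene cells at 220.1 CPM.

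The genes of the spindle checkpoint and of the anaphase-promoting complex peaked at different stages. Bub1, a checkpoint kinase, was at 149.8 and 202 CPM in undifferentiated and differentiating spermatogonia, 753 CPM in early prophase and 81.6 CPM in pachytene cells of control, and it was the only member at least 2-fold above both spermatogonial levels in early prophase in either library, with 425 CPM in the Tomato-negative one. The checkpoint kinase Ttk was at 82.3 CPM in differentiating spermatogonia and 44.8 CPM in early prophase. Ube2c, the ubiquitin-conjugating enzyme of the anaphase-promoting complex, was at 257 CPM in differentiating spermatogonia and 58.0 to 65.8 CPM in all later stages. Its activator Cdc20 was highest in pachytene cells, at 256 CPM against 186 CPM in differentiating spermatogonia.

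In the chromosomal passenger complex the kinase and its partners parted in early prophase. Aurkb, the kinase, was at 68.9, 82.0, 4.59, 40.0 and 7.58 CPM over the 5 control stages, and the Tomato-negative library had it at 4.45 CPM in early prophase. Cdca8, also called borealin, was at 319, 305, 306, 350.2 and 35.0 CPM, and Birc5, also called survivin, at 119, 214, 157, 326.5 and 115.5 CPM. Early prophase thus held the least Aurkb of any control germ stage beside near-spermatogonial Cdca8. In early prophase of control, Aurkb, Tubb4b and Cdca3 were the 3 members more than 2-fold below both their higher spermatogonial level and their pachytene level. In the Tomato-negative library 11 members were, among them these 3 with Cdk1, Aurka, Cdc20, Ube2c and Cenpe.

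Of the kinetochore and centromere genes, those that make centromeric chromatin were mostly spermatogonial. Cenpa, the histone H3 variant of centromeres, was at 291, 413.5, 37.2, 4.39 and 5.61 CPM in control and at 213.5, 325, 25.7, 4.49 and 5.47 CPM in the Tomato-negative library. Hjurp, its chaperone, was at 161, 249, 117, 78.4 and 13.6 CPM in control, a much shallower decline. The kinetochore proteins Cenpf and Cenpe were at 1354 and 353 CPM in differentiating spermatogonia and at 564 and 206 CPM in pachytene cells. The partners Ndc80 and Nuf2, which form 1 complex at the kinetochore, went opposite ways, with Ndc80 at 109.8 and 48.3 CPM and Nuf2 at 68.9 and 133.5 CPM in the same classes.

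Among the 12 spindle and microtubule genes, 8 peaked in differentiating spermatogonia. Tpx2, an activator of Aurka on the spindle, was at 267 CPM there and 265 CPM in early prophase, and Ckap2 was at 100.4 CPM there and 20.1 CPM in pachytene cells. Ckap5, a microtubule polymerase, was highest in early prophase at 428 CPM and at 53.4 CPM in pachytene cells. In control Ckap2l was nearly level from differentiating spermatogonia (96.3 CPM) to spermatids (95.9 CPM), as its relative Ckap2 was not. In the Tomato-negative library Ckap2l rose from 103.6 CPM in differentiating spermatogonia to 124.9 CPM in early prophase and 164.1 CPM in pachytene cells. Tubb4b, a beta-tubulin also used in flagella, reached 1793 CPM in spermatids of control and 1614 CPM in those of the Tomato-negative library. Psrc1, Gas2l3 and Gtse1 were scarce, at no more than 35.5 CPM in any control germ stage.

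The genes of chromosome structure and chromatin split into spermatogonial, early prophase and pachytene members. Mki67, the Ki-67 protein of proliferating cells, was at 266, 664, 559, 38.6 and 9.25 CPM over the control stages, and Hmgb2, a chromatin protein, at 554, 1094, 1050.0, 218 and 36.9 CPM. Top2a, topoisomerase II alpha, was at 386, 761, 1443, 233.5 and 81.6 CPM. Smc4, a condensin core subunit, was at 222, 506, 872, 1169 and 354 CPM, whereas Ncapd2, a regulatory subunit of condensin I, was at 105.9, 127, 111, 49.9 and 12.8 CPM. In control, Mki67 and Hmgb2 kept near-spermatogonial levels into early prophase and lost them by pachytene, while Smc4 went on upwards. From differentiating spermatogonia to early prophase of the Tomato-negative library, Mki67 fell from 592 to 341 CPM and Hmgb2 from 1978 to 1736 CPM. Anp32e, which removes a histone H2A variant, was highest in undifferentiated spermatogonia at 255 CPM and was at 94.3, 66.1, 3.26 and 2.48 CPM in the later stages. Cdca2, a phosphatase subunit of chromatin, was between 67.5 and 97.0 CPM in control and between 33.5 and 74.8 CPM in the Tomato-negative library.

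The nuclear envelope genes Lbr and Tmpo, of the inner membrane and lamina, were highest in undifferentiated spermatogonia, at 141.9 and 208 CPM. Rangap1, the GTPase activator of nuclear transport, was highest in spermatids, at 169 CPM in control and 136 CPM in the Tomato-negative library. The cytokinesis genes differed, with Anln highest in differentiating spermatogonia at 132.7 CPM and Ect2 in early prophase at 130.2 CPM. G2e3, the ubiquitin ligase of G2, was at 85.3, 51.7, 39.2, 12.4 and 96.1 CPM, high at both ends of the series and low in pachytene cells. Cdca2, G2e3, Rangap1 and Tubb4b were the members highest in spermatids, and they were the same 4 genes in both libraries.

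Differentiating spermatogonia of control held more of most early prophase markers than undifferentiated ones, such as Meioc (321 against 47.6 CPM) and Prss50 (175.9 against 18.6). Meiob (2.26 against 7.02) and Spo11 (5.56 against 13.6) were lower. How many cells of the class had entered meiosis was not tested. Set directly against pachytene and later cells, this class had 28 members at least 2-fold higher and 3 at least 2-fold lower of 47. Over the 17959 genes with at least 20 counts these shares were 46.7% and 29.7%, beside 59.6% and 6.38% of the members. The median member was 2.40-fold higher and the median gene 1.70-fold higher. In the Tomato-negative library 22 members were at least 2-fold higher and 3 lower, beside 46.1% and 30.2% of 21388 genes. The summed ratio was 1.486 (1.477 to 1.495) in control and 1.55 (1.55 to 1.56) in the Tomato-negative library.

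The direction of the sum depended on the scale. TMM scaling shifted all log2 ratios by -1.05, after which 13 members were at least 2-fold higher and 12 lower beside 32.1% and 41.0% of all genes, and the sum turned to 0.716. Nusap1, Tacc3, Aurkb, Ttk, Cdca2, Hmmr, Cenpe and Cbx5 changed direction.

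Cenpa had the largest ratio by its interval, at 413.5 CPM in differentiating spermatogonia and 4.39 CPM in pachytene cells (93.97-fold, 82.0 to 109). It was followed by Psrc1, a microtubule regulator with 3 UMIs in all pachytene cells (82.7-fold, 31.6 to 475), Anp32e (28.9-fold), Cks1b (26.1-fold, 23.4 to 29.2) and Mki67 (17.2-fold). Next came the spindle gene Gtse1 (6.57-fold), Hmgb2 (5.02-fold), Ckap2 (4.99-fold), Ckap5 (4.90-fold) and the insulator protein gene Ctcf (4.53-fold). These 10 genes were also at least 2-fold higher in differentiating spermatogonia under TMM scaling.

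At the other end, Aurka was at 59.4 CPM in differentiating spermatogonia and 316 CPM in pachytene cells (ratio 0.188, 0.174 to 0.203), and Nek2 at 92.3 and 367 CPM (0.252, 0.237 to 0.267). Smc4 had a ratio of 0.433, Nuf2 of 0.517 and Cks2 of 0.538. Ratios of 0.604 for Cdk1, 0.656 for Birc5, 0.728 for Cdc20, 0.824 for Cdca3 and 0.845 for Ckap2l completed the 10 lowest. In the Tomato-negative library Aurka (0.119) and Nek2 (0.248) were again the lowest, while Smc4 was at 0.547 there and Cks2 went the other way, at 1.83.

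**Figure D3:**
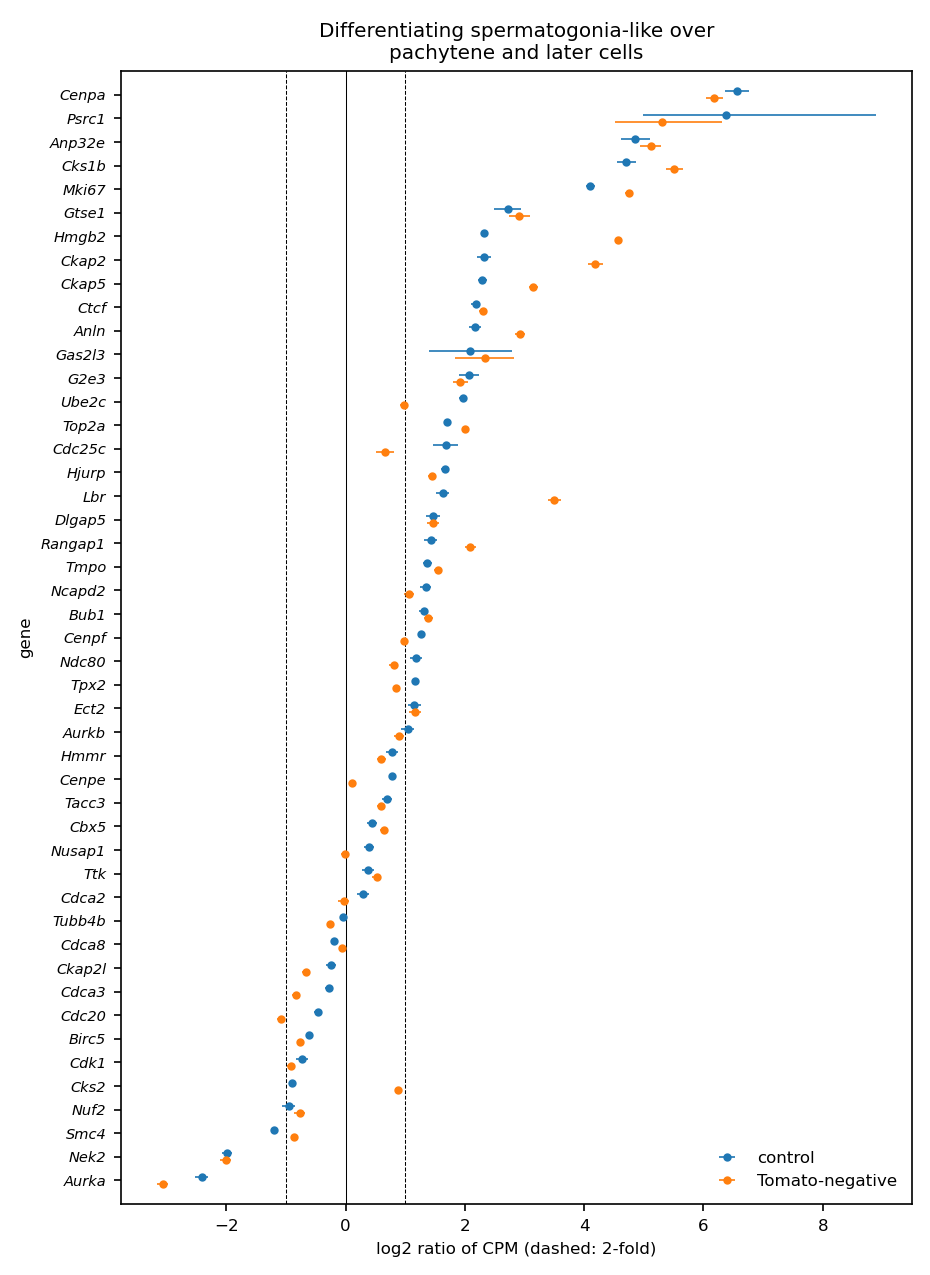
log2 ratio of CPM in differentiating spermatogonia over pachytene and later cells (horizontal axis) for each of the 47 genes (vertical axis), in the control and Tomato-negative libraries, with exact binomial intervals for counting error. Cenpa lies farthest right by interval (93.97-fold in control) and Aurka farthest left (0.188).

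The promoters of 2 members from each end are shown, leaving out Psrc1 and Anp32e, which ranked above Cks1b by interval. Each is the window from 250 bases before to 50 after the annotated start, read from RefSeq on GRCm38.p6 and written 5′ to 3′ on the strand of the gene. Capitals mark the 6 letters TTTGAA of the cell cycle homology region (CHR) and the 5 letters CCAAT of the CCAAT box, on either strand (TTCAAA and ATTGG on the other), elements known from G2/M promoters. The windows are chr5:30666636-30666935 (+) for Cenpa, chr3:89418242-89418541 (-) for Cks1b, chr2:172370521-172370820 (-) for Aurka and chr1:191821223-191821522 (+) for Nek2, each spanning the 5′ end of its gene.
Cenpa: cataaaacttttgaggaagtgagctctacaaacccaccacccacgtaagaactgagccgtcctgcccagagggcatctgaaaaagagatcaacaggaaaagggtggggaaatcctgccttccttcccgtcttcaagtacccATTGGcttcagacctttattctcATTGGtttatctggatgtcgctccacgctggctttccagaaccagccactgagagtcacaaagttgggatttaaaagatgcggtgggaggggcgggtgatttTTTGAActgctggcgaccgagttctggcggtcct
Cks1b: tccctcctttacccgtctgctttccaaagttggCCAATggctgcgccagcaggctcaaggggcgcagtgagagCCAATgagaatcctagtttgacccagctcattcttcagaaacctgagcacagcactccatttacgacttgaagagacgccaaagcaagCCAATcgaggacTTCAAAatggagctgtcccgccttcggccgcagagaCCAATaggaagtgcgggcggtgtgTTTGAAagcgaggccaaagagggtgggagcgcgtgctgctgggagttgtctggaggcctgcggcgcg
Aurka: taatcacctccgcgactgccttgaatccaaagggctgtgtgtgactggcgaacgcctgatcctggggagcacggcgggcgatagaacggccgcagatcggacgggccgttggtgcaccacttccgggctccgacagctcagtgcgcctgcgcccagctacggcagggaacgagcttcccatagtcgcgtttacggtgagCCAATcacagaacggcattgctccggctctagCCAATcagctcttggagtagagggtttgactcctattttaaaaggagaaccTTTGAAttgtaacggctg
Nek2: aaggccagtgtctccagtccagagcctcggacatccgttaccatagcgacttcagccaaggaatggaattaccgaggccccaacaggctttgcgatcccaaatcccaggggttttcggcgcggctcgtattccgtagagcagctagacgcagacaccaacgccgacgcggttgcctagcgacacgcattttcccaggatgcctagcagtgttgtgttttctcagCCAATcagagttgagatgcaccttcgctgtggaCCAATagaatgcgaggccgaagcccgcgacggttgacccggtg
The CHR letters began 17 bases after the start in Cenpa, 17 before it and, on the other strand, 77 before it in Cks1b, and 33 after it in Aurka. The Nek2 window held no TTTGAA and 2 CCAAT boxes. RefSeq windows were matched for 41 of 47 members (46 windows). TTTGAA stood in 63.0% of the members' windows and 17.9% of all 32851 windows, CCAAT in 76.1% and 37.4%, and both in 52.2% and 6.95%. By highest control stage, 16 of 23 matched genes of spermatogonia, 4 of 5 of early prophase, 6 of 10 of pachytene cells and 2 of 3 of spermatids held TTTGAA. These matches describe letters in these windows and not binding.

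Most mitotic and meiotic cells carried several of the genes at once. After thinning each cell to 2000 UMIs, the median cell held 13 of the 47 genes in differentiating spermatogonia of control and of the Tomato-negative library, and 10 in pachytene cells of both. At least 5 genes were seen in 98.5% of 1553 control differentiating spermatogonia (97.8% to 99.1%), 98.7% of pachytene cells and 49.3% of spermatids. A share of 30.6% of Tomato-negative Sertoli cells and 12.4% of control myoid cells, both somatic classes, stands beside these. Without thinning, 99.9% of control differentiating spermatogonia, 100% of pachytene cells, 75.0% of Sertoli cells and 70.2% of control myoid cells passed, at median depths of 7422, 48812, 6532 and 5254.5 UMIs.

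At 10 or more genes the classes separated further. In control 77.3% of differentiating spermatogonia, 77.7% of early prophase cells, 57.0% of undifferentiated spermatogonia, 54.8% of pachytene cells and 7.28% of spermatids passed. Among Tomato-negative Sertoli cells 1.13% did, and among control myoid cells 0 of 595, which allows a share of up to 0.618% (exact). Of control differentiating spermatogonia, 13.9% held 9 or 10 genes and so lay at that limit.

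**Figure D4:**
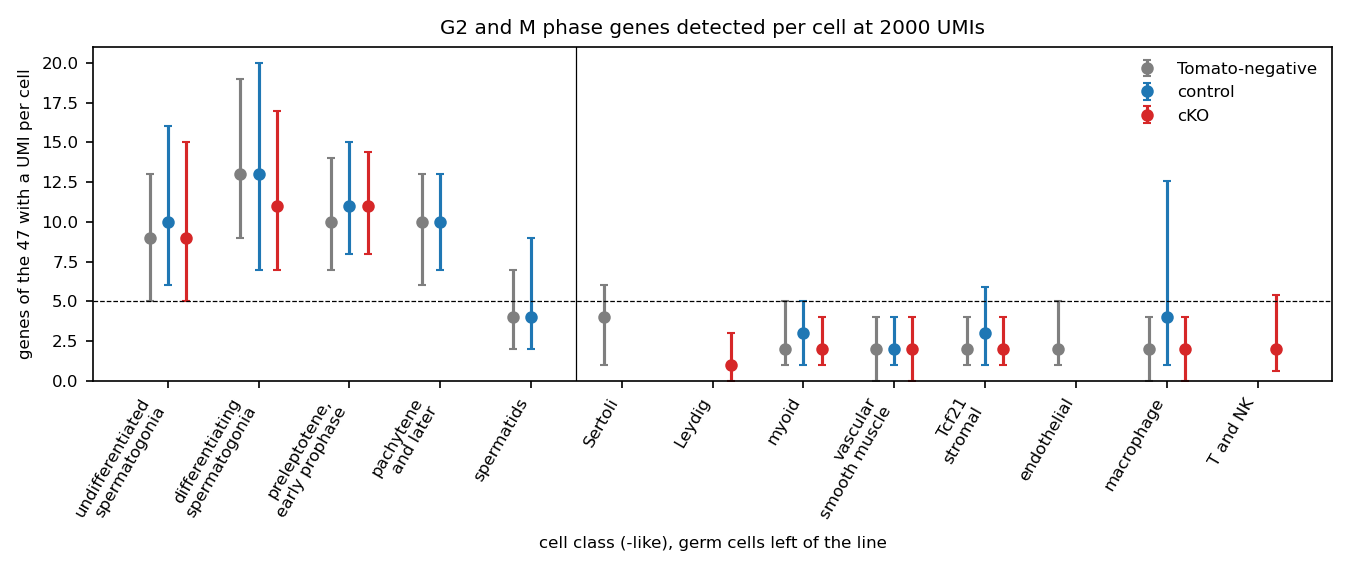
Number of the 47 genes with at least 1 UMI per cell after thinning to 2000 UMIs (vertical axis) by class and library (horizontal axis); points are medians and bars run from the 10th to the 90th percentile of cells, with a dashed line at 5 genes. The median is 13 in differentiating spermatogonia of the control and Tomato-negative libraries and 11 in the cKO.

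Cells with many detected genes carried more of the members in spermatogonia. Control differentiating spermatogonia with over 3500 genes held 128.6 member UMIs per 10000 and those with up to 3500 genes 101.5, and the former supplied 69.6% of the member UMIs of the class. In control undifferentiated spermatogonia the values were 83.6 and 64.5. The gap was smaller in differentiating cells of the Tomato-negative library (120.3 and 111.6) and of cKO (96.6 and 91.3), and in undifferentiated cells of cKO (77.1 and 74.5). In pachytene cells 99.8% of member UMIs came from cells over 3500 genes. No upper limit on genes per cell was set here.

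In undifferentiated spermatogonia 46 of the 47 members lay within 2-fold between the cKO and control libraries. Of 47 members 0 were at least 2-fold higher and 1 lower in cKO, beside 4.25% and 6.22% of 15988 genes. The one was Psrc1, at 4.17 CPM in control and 2.05 CPM in cKO on 19 and 33 UMIs. The median ratio was 0.899 for members and 0.965 for all genes, and the sum was 77.03 against 82.3 per 10000 (0.936, 0.925 to 0.947). Direction depended on how the class was drawn, as without integration the sum was higher in cKO (1.16, 1.14 to 1.17), with 0 members past 2-fold beside 4.16% and 6.78% of all genes.

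The undifferentiated classes of control and cKO were not alike in their markers either. Kit was at 63.6 CPM in control and 13.2 CPM in cKO, Stra8, a factor induced by retinoic acid, at 284 and 74.0 CPM, and Gfra1 at 40.3 and 83.4 CPM. The 12 markers of pachytene and later spermatocytes, all seen in both, summed to 6.98 UMIs per 10000 in control and 1.78 in cKO, and among them Ldhc, a lactate dehydrogenase of germ cells, was at 290.5 and 5.66 CPM. Of the lowest members described next, Ckap2l, Aurka, Nek2, Birc5 and Smc4 have their highest level among control germ cell stages in pachytene cells, and the part of these marker differences in their ratios was not tested.

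Of single members in undifferentiated spermatogonia, the highest by interval were Cks1b (146 CPM in control, 182 CPM in cKO, ratio 1.24), Cenpa (291 and 348 CPM, 1.20), Anp32e (255 and 294 CPM, 1.15) and Gas2l3 (12.3 and 16.9 CPM, 1.36). Lbr (1.08), Ckap5 (1.05), Cks2 (1.02) and Cdk1 (1.10), were also among the 8 highest, with intervals that included 1. The lowest were Ckap2l (36.0 and 23.0 CPM, 0.639), Ncapd2 (105.9 and 74.9 CPM, 0.707), Aurka (37.1 and 25.4 CPM, 0.683) and Nek2 (89.2 and 66.0 CPM, 0.739). Anln (0.755), Birc5 (0.789), Smc4 (0.821) and Ube2c (0.809) followed. All 16 stayed within 2-fold. Without integration Anln, Birc5, Nek2 and Ube2c were above 1 in cKO, without doublets the log2 ratio of Smc4 was 0.000, and with a limit of 3500 genes per cell Anln, Nek2 and Ube2c were above 1 in cKO, with a log2 ratio of 0.58 for Nek2.

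In the joint class of differentiating spermatogonia the cKO library had 2 members at least 2-fold higher, Anp32e and Gas2l3, and 5 at least 2-fold lower, Nusap1, Mki67, Smc4, Ckap2l and Ctcf, of which Ctcf was within 2-fold under TMM scaling (log2 ratio -0.94). Over 17148 genes 19.7% were higher and 16.6% lower, so both shares of members were below those of all genes. The sum was 96.55 in cKO against 118.9 per 10000 in control (0.812, 0.807 to 0.817), and the median member was at 0.798 and the median gene at 0.959. As given above, cells of this class carried more of the undifferentiated markers in cKO. Most early prophase markers were lower there than in control, such as Meioc (33.3 against 321 CPM) and Prss50 (9.43 against 175.9). Hormad1 (133 against 121.4), Spo11 (10.9 against 5.56) and Meiob (2.49 against 2.26) were higher. The markers of pachytene cells were lower in cKO, among them Ldhc (4.37 against 184.1) and Hspa2 (20.65 against 93.8). Smc4, Ckap2l and Aurka have their highest control level in pachytene cells. The part of these marker differences in the ratios was not tested.

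Anp32e was at 94.3 CPM in control and 333 CPM in cKO (3.53-fold, 3.32 to 3.76), and Gas2l3, which links actin and microtubules, at 3.22 and 14.5 CPM (4.46-fold, 3.25 to 6.43). Cks2 (220.5 and 402.5 CPM, 1.83-fold) and Lbr (96.3 and 146 CPM, 1.52-fold) came next, then Cdca8 (1.21), Cenpf (1.18), Ndc80 (1.19) and Tmpo (1.15). Anp32e, Gas2l3, Cks2 and Lbr were among the 8 members that control held at higher levels in undifferentiated than in differentiating spermatogonia.

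Ckap2l, a spindle protein, was at 96.3 CPM in control and 29.6 CPM in cKO (0.307, 0.279 to 0.338), Nusap1, which bundles microtubules, at 144 and 50.4 CPM (0.350), and Smc4 at 506 and 183 CPM (0.362). Mki67 was at 664 and 301 CPM (0.454, 0.439 to 0.469) and Ctcf at 273 and 130.0 CPM (0.477). Tpx2 (0.515), Hjurp (0.518) and Aurka (0.514) were just within 2-fold. Nusap1, Tpx2, Mki67, Smc4, Ckap2l, Gtse1 and Ctcf were the 7 members at least 2-fold higher in differentiating than in undifferentiated spermatogonia of control, and Anp32e and Gas2l3 the 2 lower, beside 9.32% and 17.5% of genes. Within cKO the same 2 classes differed past 2-fold for 0 members in each direction, beside 1.79% and 6.9% of genes.

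Without integration no member passed 2-fold. Only 90 cKO cells then fell with the differentiating spermatogonia and 2333 with the undifferentiated, and these 90 had Kit at 161.9 CPM against 164.6 CPM in control and Gfra1 at 0. They held 120.2 member UMIs per 10000 against 116.1 in control (1.04, 1.02 to 1.06), with 0 members at least 2-fold higher and 0 lower beside 3.24% and 12.6% of 14246 genes, and a median member ratio of 1.01. Mki67 was at 717 CPM in cKO and 637 CPM in control (1.13, 1.04 to 1.22), Smc4 at 575 and 485 CPM (1.19, 1.08 to 1.30) and Anp32e at 100.6 and 106.2 CPM (0.953, 0.755 to 1.18). Ckap2l had a ratio of 1.16 (0.920 to 1.42) and Gas2l3 of 1.83 on 5 UMIs in cKO (0.524 to 4.20). With the stage of each cell read from its own markers, 497 cKO cells were placed as differentiating. They had Kit at 80.6 CPM against 189 CPM in control and Stra8 at 423 CPM against 328 CPM. The summed ratio was 0.779, so that the sum was lower in cKO under that choice and not without integration.

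**Figure D5:**
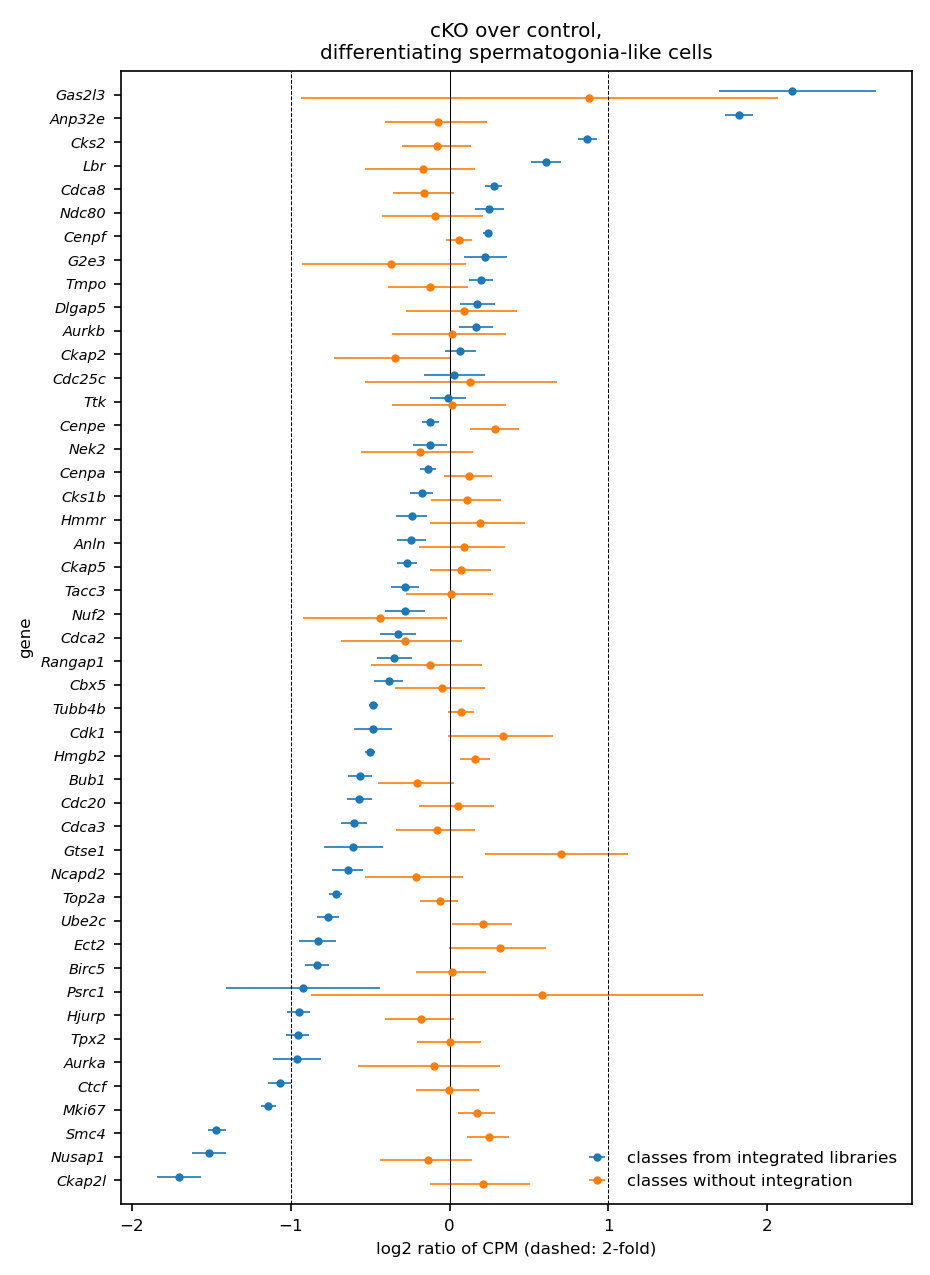
log2 ratio of CPM in cKO over control differentiating spermatogonia (horizontal axis) for each of the 47 genes (vertical axis), with classes drawn from integrated libraries and without integration; bars are exact binomial intervals for counting error. Ckap2l (0.307) and Anp32e (3.53-fold) lie past the dashed 2-fold lines in the first and within them in the second.

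Finer clusters of the joint class were filled unevenly by the libraries. The largest of them in cKO held 54.7% of its cells against 22.8% in control and had a summed ratio of 0.741, while the largest in control held 55.6% of its cells against 7.44% in cKO and had a ratio of 0.923. In the third the ratio was 0.961, and in the fourth, with 12.8% of cKO and 2.60% of control cells, it was 1.03 (0.988 to 1.08). In each of the 4, only Anp32e, Gas2l3, Cks2, Lbr and Tmpo were above 1 in cKO, while Mki67, Smc4, Nusap1, Ckap2l and Ctcf were below 1. Also below 1 in each were Hmgb2, Ube2c, Birc5, Tpx2, Tacc3, Bub1, Hjurp, Cdca3, Ect2, Aurka, Anln and Cbx5. These are directions of point values, and some intervals included 1, as for Tmpo in all but the first. The finer clusters did not hold like cells either. In the order given above, Kit was at 181.8, 112.5, 255 and 111.1 CPM in control. In cKO Kit was at 32.3, 91.7, 28.7 and 16.1 CPM, lower in each of the 4. Stra8, another marker of differentiating spermatogonia, was at 97.83, 174.3, 541.2 and 281.7 CPM in control. In cKO Stra8 was at 276.6, 207.2, 251 and 175.1 CPM. It was thus higher in cKO in the largest cluster of each library and lower in the others.

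The members per cell followed the sums. At 2000 UMIs, 98.3% of cKO cells of the joint differentiating class held at least 5 of the genes, against 98.5% in control, and 70.0% against 77.3% held at least 10. Without thinning the first shares were 100% and 99.9%, at median depths of 17683.5 and 7422 UMIs. In undifferentiated spermatogonia 47.2% of cKO and 57.0% of control cells held at least 10.

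Tomato-negative and control cells, which differ in age, genotype and sort, had the same members in differentiating spermatogonia within 2-fold. There 0 members were higher and 0 lower, beside 10.1% and 1.23% of 16694 genes, and the summed ratio was 1.01. In pachytene and later cells 0 were higher and 5 lower in the Tomato-negative library, Hmgb2, Cks2, Ckap2, Lbr and Ckap5, beside 18.7% and 11.8% of 20570 genes. Cks2 was at 126 CPM there and 410.1 CPM in control pachytene cells (0.308) and Hmgb2 at 83.3 and 218 CPM (0.382). In undifferentiated spermatogonia the sum was lower in the Tomato-negative library (0.776, 0.766 to 0.786), with a median member ratio of 0.780.

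A few members were as high in somatic as in germ cells. Cbx5, a heterochromatin protein, was at 404 CPM in control and 391 CPM in cKO myoid cells against at most 134 CPM in any control germ stage. Tmpo was at 210 CPM in Tcf21 stromal cells of control, beside 208 CPM in its highest germ stage. Psrc1 and Gas2l3 were also above every control germ stage in a somatic class, both in macrophages, at 10.5 CPM (3 UMIs) and 24.5 CPM (7 UMIs).

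Sertoli cells of the Tomato-negative library held the highest somatic sum there and an uneven set of members. Cdk1 was at 158 CPM in Sertoli cells, 93.9 CPM in differentiating spermatogonia and 177 CPM in pachytene cells, and Cks2 at 284, 231 and 126 CPM, which put Cks2 above every germ stage. Anp32e (220.5 CPM), Hmgb2 (368 CPM), Cks1b (106 CPM), Rangap1 (102.7 CPM) and Tpx2 (85.1 CPM) were also present. Mki67 was at 6.14 CPM against 592 CPM in differentiating spermatogonia and Aurka at 22.7 CPM. As a share of the pachytene level in the same library, Sertoli cells held 5.07% for Aurka, 89.4% for Cdk1 and 225% for Cks2.

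Of the somatic classes, macrophages had the largest difference in the sum between control and cKO. Of the 33 members with at least 20 counts 0 were at least 2-fold higher in cKO and 22 lower, beside 10.9% and 9.89% of 6980 genes, and the sum was 46.2 per 10000 in control and 16.0 in cKO (0.347, 0.323 to 0.373). The Tomato-negative library had 11.99. In control 17 of 138 macrophages held 10 or more members and supplied 64.2% of the member UMIs of the class. Chosen by this count, these cells held 141.9 member UMIs per 10000 against 20.9 in the rest, 19.2 germ cell marker UMIs against 40.2, and 418 macrophage marker UMIs against 558, and 0 of them were called doublets. In cKO 13 of 273 macrophages did so, and 4 of these were called doublets. Germ cell marker UMIs were far lower in cKO macrophages, at 3.36 per 10000 in these 13 cells and 2.43 in the rest, and their part in the difference between the libraries was not tested. In myoid cells 0 of 37 members were at least 2-fold higher in cKO and 17 lower, beside 4.625% and 7.22% of 13556 genes. The summed ratio there was 0.843 (0.818 to 0.870). In Tcf21 stromal cells 5 of 37 were higher and 8 lower, beside 8.95% and 9.91% of 12073 genes. In vascular smooth muscle 5 of 21 were higher and 0 lower, beside 7.84% and 5.88% of 6751 genes.

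The 30 other genes of the pathway, cyclins, kinesins, cell cycle transcription factors and inhibitors, included genes higher and genes lower in differentiating spermatogonia than in pachytene cells. From pachytene cells to differentiating spermatogonia of control 14 of 30 (46.67%) were at least 2-fold higher and 6 (20%) lower, beside 46.7% and 29.7% of all genes, so that the share higher was that of all genes. In the Tomato-negative library 11 were higher and 7 lower, beside 46.1% and 30.2%, and the summed ratio of the 30 was 1.33 in control and 0.920 there. Ccna2, the somatic cyclin A, was at 231.5 CPM in differentiating spermatogonia and 3.21 CPM in pachytene cells (71.8-fold), and Ccna1, the germ cell cyclin A, at 5.96 and 218 CPM (0.0276). The kinesin gene Kif4 (40.5-fold), the factor Mybl2 (29.5-fold), Cdc25b (71.0-fold) and the inhibitor Cdkn1a (23.2-fold) were higher, with Ccnb3, Rbl2, Kif11, Wee1, Mad2l1, Kif23, Lin54, Rbl1 and Kif20b between 2.17- and 14.2-fold. Mybl1, a factor of meiotic cells, was lower (0.0487), as were Pkmyt1 (0.161), Lin52 (0.336), Fzr1 (0.401) and Ccnb2 (0.418).

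In the joint differentiating class 1 of the 30 was at least 2-fold higher in cKO and 10 lower, beside 19.7% and 16.6% of all genes. Cdkn1b, an inhibitor of cyclin-dependent kinases, was at 0.564 CPM in control and 41.9 CPM in cKO (69.4-fold, 35.9 to 185), beside 77.6 CPM in undifferentiated spermatogonia of control and 73.2 CPM in those of cKO. Plk1, a kinase of mitotic entry, was at 103.3 and 31.9 CPM (0.309), and Ccna1 (0.222), Cdc25b (0.280), Cdkn1a (0.291), E2f4 (0.321), Rbl1 (0.447), Kif4 (0.451), Rbl2 (0.473), Fzr1 (0.473) and Kif23 (0.475) were the others lower. Without integration 0 were higher and 2 lower, beside 3.24% and 12.6% of all genes. These were Ccna1 and Rbl2, with 0 and 1 UMIs in cKO (Rbl2 0.386, 0.00646 to 1.495). In undifferentiated spermatogonia 0 were higher and 2 lower, Ccna1 (0.111) and Mybl1 (0.460), beside 4.25% and 6.22% of all genes.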

How the data were processed

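Single-cell counts of UMIs per gene and cell were deposited by the authors, made with Cell Ranger 2.1.1 on GRCm38 from 10x libraries. The Tomato-negative table also held 6264 cells identical to the control table and 149 with cKO barcodes, and these 6413 columns were not used. Cells with at least 200 genes and at most 10% mitochondrial UMIs were kept (6234 Tomato-negative, 6124 control and 7038 cKO), without an upper gene limit. The cells were clustered with Seurat 5.3.0 in R 4.3.3 on genes other than 125 cell cycle genes, control and cKO after integration, and clusters were named from markers. Scrublet (scanpy 1.11.5) called 375, 215 and 334 doublets, which were left in. UMIs were summed per library and class as CPM, with exact Poisson intervals. Ratios had 0.5 added to each count and exact conditional binomial intervals, and shares had Clopper-Pearson intervals. A gene was called past 2-fold among those with at least 20 counts. With 1 library per group no test was made. UMIs correct for PCR copies, and intervals cover counting error only. Named genes were the 8 highest and 8 lowest ratios between genotypes and the 10 at each end between stages, ranked on whichever interval bound lay closer to equality, with the members highest in spermatids or in a somatic class, the 5 with the most UMIs, and other pathway genes past 2-fold. Members named by role beyond these were chosen after their values were seen. Alternatives were TMM scaling (edgeR 4.0.16), other limits on cells, classes drawn in other ways, thinning to 2000 UMIs, 0.1 added and no count filter. Scripts were tested on simulated data. The members and lists were chosen with earlier results of these data known.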

Additional observations from a re-analysis of the deposited data

Results flagged for a closer look

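The ratio of cKO over control went opposite ways in undifferentiated spermatogonia and in the joint differentiating class for 4 named members, and none of these differences was tested. The log2 ratio in differentiating cells less that in undifferentiated cells was -0.49 for Cks1b and -0.39 for Cenpa, which were higher in cKO only in the undifferentiated class. It was 0.29 for Cenpf and 0.43 for Cdca8, which were higher in cKO only in the joint differentiating class. Under TMM scaling Cenpf was above 1 in the undifferentiated class too, so its opposite directions depend on the scale. The cKO cells of the joint differentiating class carried more of the undifferentiated markers and less of most meiotic markers than control cells. The part of this in the 4 values was not tested.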

How the results depend on the processing

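Of 517 values of named genes over all alternatives, 348 moved by less than their counting interval, 144 moved beyond it in the same direction and 25 changed direction, and the cause was not tested. The sums and medians given below are not among these values, and some of them also changed direction. A mitochondrial limit of 5%, 0.1 added to each count and no filter on low counts left 52 of 52 within their intervals. No paired analysis was possible because each group is 1 library. Depth limits Psrc1 and Gas2l3 most.

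A limit of 3500 genes per cell gave 101.5 member UMIs per 10000 in control differentiating spermatogonia and 65.8 in pachytene cells. It removed 983 of the 1002 control pachytene cells. The pachytene values under this limit therefore rest on fewer than the 30 cells otherwise required to compare a class. In undifferentiated spermatogonia the summed cKO over control ratio was then 1.16 with 0 members 2-fold lower, the median log2 ratio 0.043, and the log2 ratios of Anln 0.043, Nek2 0.58 and Ube2c 0.18. In differentiating cells the sum was 0.8996 with 3 members 2-fold lower, and Ndc80 was at -0.16 and Tmpo at -0.083. Over pachytene cells the sum was 1.54, Cdc20 was at 0.32 and Ckap2l at 0.43, and 97.5% of control and 96.1% of cKO thinned cells held at least 5 members.

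Without integration the differentiating cells of control held 116.1 per 10000 and the sum over pachytene cells was 1.45. The undifferentiated sum was 1.16 with 0 members lower, the median log2 ratio 0.075, and Anln was at 0.075, Birc5 at 0.029, Nek2 at 0.075 and Ube2c at 0.020. The differentiating sum was 1.04 with 0 members higher and 0 lower, and the median log2 ratio 0.015. Its log2 ratios were -0.07 for Anp32e, -0.16 for Cdca8, 0.21 for Ckap2l, -0.076 for Cks2, -0.16 for Lbr, 0.17 for Mki67, -0.092 for Ndc80, 0.25 for Smc4, -0.12 for Tmpo and 0.002 for Tpx2.

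With stages read per cell from markers, control differentiating cells held 116.9 per 10000 and 99.1% held at least 5 members. The undifferentiated sum was 1.11 with 0 members lower, the median log2 ratio 0.063, Anln 0.063, Birc5 0.017 and Nek2 0.004, and the sums were 0.779 in differentiating cells and 1.46 over pachytene cells. With cell cycle genes in the clustering the sums were 0.903 with 0 members lower and 0.827. Without doublets pachytene cells held 79.6 per 10000, and the undifferentiated log2 ratio of Smc4 was 0.000.

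TMM scaling gave sums of 0.996 with 0 members lower in undifferentiated and 0.885 in differentiating cells, and over pachytene cells 0.716 with 13 members higher and 12 lower. Cells thinned to 2000 UMIs gave 111.9 and 80.4 per 10000, 1 member higher in undifferentiated cells, a differentiating sum of 0.836, and over pachytene cells a sum of 1.39 with 5 members lower. Unthinned, 99.9% of control and 100% of cKO differentiating cells held at least 5 members; thinned, 99.9% and 99.5% held at least 3, and 77.3% and 70.0% at least 10.

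Finer clusters, chosen after seeing the data, gave sums of 0.741, 0.923, 0.961 and 1.03 in differentiating and 0.904 and 0.985 in undifferentiated cells. Weighted to their pooled shares, also chosen after seeing the data, the differentiating sum was 0.849 with 1 member lower.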

Other observations

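The 48 genes of S phase, listed apart from the 47 members, made up 63.3 UMIs per 10000 in undifferentiated spermatogonia of control, 88.3 in differentiating spermatogonia, 86.7 in early prophase, 52.6 in pachytene and later cells and 32.9 in spermatids. Between differentiating spermatogonia and pachytene cells 35 of the 48 were at least 2-fold higher and 3 lower, beside 46.7% and 29.7% of all genes on the CPM scale. TMM scaling turned the shares of all genes to 32.1% and 41.0%.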
